A study of Mus musculus with 9 samples.

Results

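This account concerns 3206 regions that act as enhancers in mouse embryonic stem cells, that were in neither list of change between cells with LIF and cells given retinoic acid without LIF, and that overlapped no binding site of the retinoic acid receptor RARA. They were chosen from the 4674 regions of the deposited list of mESC enhancers by leaving out each region that shared at least 1 bp with a LIF-dependent region, an RA-induced region or an RARA peak. The rule used measured values throughout, so membership is a description and carries no test. "Unchanged" means absence from both lists of change. No fold between conditions was given for these regions, and absence of a call does not measure constancy. In the same way "without RARA" means that no peak was called there in 1 ChIP-seq library.

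The cells were E14, a mouse embryonic stem cell line grown without feeders. Activity was read by FAIRE-STARR-seq. In this assay, fragments of open chromatin are cloned into a reporter plasmid downstream of its promoter, so that a fragment with enhancer activity raises the transcription of its own sequence. The fragments came from E14 cells given retinoic acid (RA) for 4 h, so the plasmid library holds the open chromatin of RA-treated cells. Reporter RNA was measured in 3 samples kept with leukemia inhibitory factor (LIF) for the final 4 h and in 3 samples given 1 µM RA without LIF for the same time, next to 1 sample of the plasmid library. RARA binding was mapped by ChIP-seq in 1 library from cells given 1 µM RA for 4 h, with 1 ChIP input library. The reporter sits on a plasmid, so activity was read away from the native chromosome. With peak lists alone, the identity of the cells could not be checked against marker genes.

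LIF keeps mouse embryonic stem cells pluripotent by signalling through its receptor to the transcription factor STAT3. RA binds receptors of the RAR family, which pair with RXR on DNA and switch from repression to activation when the ligand arrives, and it drives these cells towards differentiation. Enhancers that are active with LIF can therefore depend on LIF, respond to RA, or stay outside both responses. The regions described here were in neither list of change and overlapped no RARA peak, which does not show that they stay outside both responses.

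The deposited enhancer lists were made from merged replicates, so they give neither values for single replicates nor read counts. No spread between cultures can be given, and no test between conditions was made. Fold enrichments are the authors' own peak values. Intervals on shares are 95% Wilson intervals. Intervals on medians are 95% intervals from the ranks of the values. Both cover counting error over regions treated as independent, not differences between cultures. Positions are mm9, counted from 1. Nearest genes, gene starts and sequences were not analysed here, because the reference tables at hand belong to another assembly, so regions are named by position.

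These regions made up 68.6% of the mESC enhancers (67.2 to 69.9%). The background calls were an RARA peak at 18.5% of all mESC enhancers, a LIF-dependent region at 12.8% and an RA-induced region at 4.17%. Of the 1468 regions left out, 673 had an RARA peak and were in neither list of change, 600 were LIF-dependent and 195 were RA-induced. Of the changed ones, 494 LIF-dependent and 108 RA-induced enhancers had no RARA peak either. Together the 3206 regions covered 1028 kb of the 1554 kb covered by all mESC enhancers.

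Their activity with LIF spanned a wide range. Fold enrichment of LIF reporter RNA over the plasmid input ran from 2.51 to 57.4, with a median of 8.40 (8.27 to 8.60) and quartiles of 6.27 and 11.6. The deposited activity score, a value of unstated scale, ran from 0.445 to 4.69 with a median of 2.49 (2.47 to 2.52). The lists were made so that a LIF signal over the plasmid was required, so these levels are set in part by the rule. Beside them stood the 673 unchanged enhancers with an RARA peak, whose median fold was 9.02 (8.68 to 9.74) and median score 2.55 (2.46 to 2.62). LIF-dependent enhancers had 9.08 and 2.61, and RA-induced ones 9.72 and 2.47. The classes overlapped almost wholly, and the medians of fold differed by less than the distance between the quartiles of any class.

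Unchanged enhancers without an RARA peak were present at every level of activity and less frequent at the top. In the lowest quartile of mESC enhancers by fold (2.30 to 6.36) they made up 70.8% (68.1 to 73.3%), in the second 72.3% and in the third 71.0%. In the highest quartile (12.2 to 62.7) the share was 60.3% (57.5 to 63.1%). By score the share was 70.7% in the lowest quartile and 64.1% in the highest. They held 4 of the 10 and 48 of the 100 highest scores among mESC enhancers, against 69 of the 100 lowest. Their share of the whole list was 68.6%, so only the counts at the highest scores departed from it. RARA was mapped after RA, whereas the fold was measured with LIF. Over the same fold quartiles the share of unchanged enhancers with an RARA peak was 15.3%, 15.6%, 16.5% and 22.4% (19.8 to 25.2% in the highest). The LIF signal also enters the LIF-dependent call, and its part in this gradient was not tested.

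The 10 regions of highest score had scores from 4.46 to 4.69, folds over the plasmid from 15.0 to 33.5 and widths from 220 to 316 bp. The first, chr1:25944966-25945207, scored 4.69 at a fold of 24.9. It overlapped no region of the plasmid input, and its nearest RARA peak lay 4980 kb away, the largest gap of all the 3206. The second, chr3:120526483-120526757, had the same score to 3 digits and a fold of 30.9, with a nearest RARA peak 595 kb away. On chromosome 10, chr10:38826768-38827019 scored 4.63 at a fold of 15.0, the lowest fold of the 10. The seventh, chr9:37292813-37293128, scored 4.58, and its fold of 33.5 was the highest of the 10. It was the exception in its surroundings, since an RARA peak of 2.30-fold enrichment lay 149 bp from its edge. Of the other 9, the nearest RARA peak was 42.0 kb away at chr10:38826768-38827019 and farther at the rest.

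Ranking by fold picked different regions, with no region shared between the 10 of highest score and the 10 of highest fold. The highest fold, 57.4, belonged to chr1:8087089-8087413, whose score was 4.39. Next came chr9:9269207-9269673 with a fold of 54.3 (score 3.91) and chr4:145699996-145700394 with a fold of 46.9 (score 4.04). The RARA peak nearest to the chromosome 4 region was 207 bp away and weak, at 1.89-fold. Another 2 regions of this group lay within 1 kb of an RARA peak: chr2:71704666-71705054 at 686 bp (fold 40.1, RARA peak 3.62-fold) and chr7:52716200-52716492 at 557 bp (fold 35.9, RARA peak 2.31-fold). At the other end, chr12:88729326-88729572 had the lowest score, 0.445, with a fold of 2.78. The 5 lowest scores ran up to 0.823, and their folds from 2.78 to 4.25.

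Score and fold rose together across the 3174 regions that overlapped a plasmid input region (Spearman's rho 0.80). Both come from the same LIF and input libraries, so this is a description of how they relate and not a separate measurement. They parted with the representation of the DNA in the library. The score tended to be lower where the plasmid input fold was higher (Spearman's rho -0.35), and the fold showed this only weakly (-0.09).

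**Figure D1:**
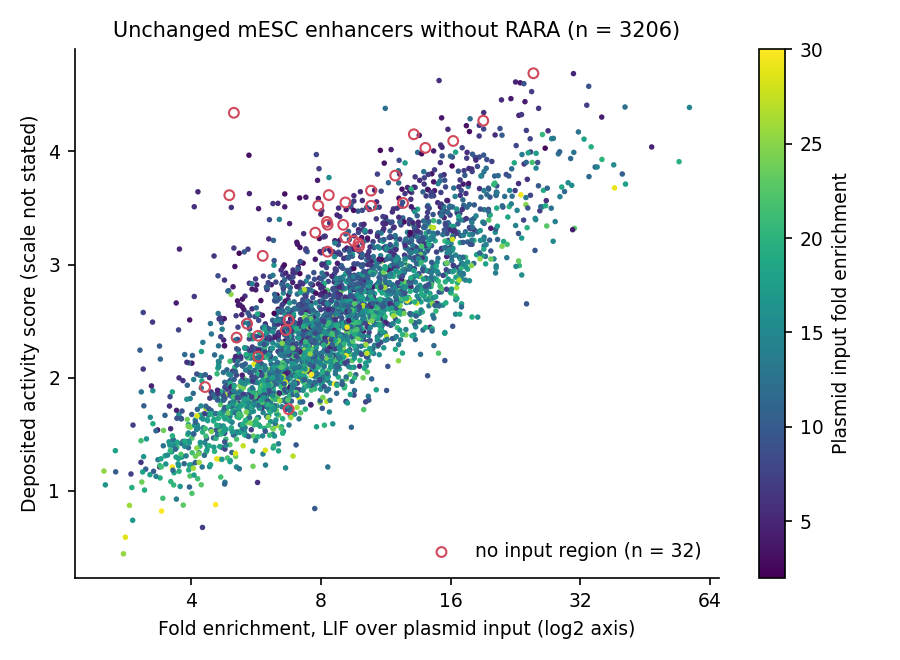
Each point is 1 of the 3206 unchanged mESC enhancers without an RARA peak, with its fold enrichment of LIF over the plasmid input on a log2 axis, its deposited score, and its plasmid input fold as colour. Points of low input fold lie along the upper edge of the cloud, and the 32 regions with no input region (open circles) have a median score of 3.35 at a median fold of 8.32.

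The plasmid library holds each piece of open chromatin to a different degree, and the input fold enrichment is read here as a measure of this representation. The control behind that fold is not stated in the file or the labels. It was not used by the rule as a measure, although a LIF call over the input rests on the same input reads. Of the 3206 regions 3174 overlapped an input region (99.0%, 98.6 to 99.3%). Their input fold had a median of 12.9 (12.7 to 13.2), from 2.15 to 35.9, against 5.36 in the 182159 input regions that held no listed enhancer. Unchanged enhancers with an RARA peak had 12.2 (11.6 to 12.8), LIF-dependent ones 12.3 (11.5 to 13.1) and RA-induced ones 15.0 (13.8 to 16.1). The difference between unchanged enhancers without and with an RARA peak, 12.9 against 12.2, was small beside the quartiles of either (9.09 and 17.5, and 8.76 and 16.5) and was not tested.

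**Figure D2:**
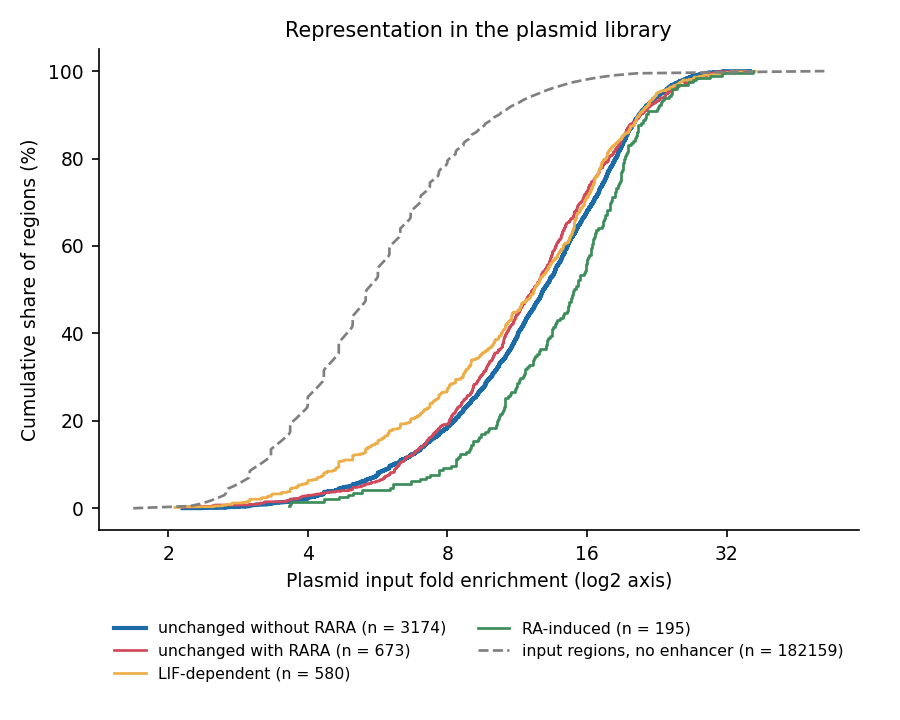
Cumulative share of regions (%) against plasmid input fold enrichment on a log2 axis, for the 4 classes of mESC enhancers and for input regions with no enhancer (dashed). The curve of the unchanged enhancers without an RARA peak (median 12.9) lies close to that of unchanged enhancers with one (12.2), and far to the right of input regions with no enhancer (5.36).

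Over all 186959 input regions, 2.47% overlapped an mESC enhancer and 1.70% one of the 3206. The share rose steeply with representation. In the lowest decile of input fold (median 2.78) it was 0.150% (0.104 to 0.216%). In the eighth decile it was 1.13%, in the ninth 2.52% (2.30 to 2.75%) and in the highest (median 13.5) 11.0% (10.5 to 11.4%). Overlap with an RARA peak, 2.94% over all input regions, rose more gently, from 1.42% in the lowest decile to 9.44% in the highest. The ease of calling an enhancer over the input and activity itself cannot be told apart here.

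Within the 3206 regions, the score fell as representation rose. In the quartile of lowest input fold (2.07 to 8.96 over all mESC enhancers) the 765 regions had a median score of 2.84, with quartiles of 2.42 and 3.33. In the next quartiles the medians were 2.52 and 2.42, and in that of highest input fold 2.22, with quartiles of 1.82 and 2.63. The peak fold moved little, with medians of 8.72, 8.64, 8.44 and 7.82. The −log10 q of the peaks went the opposite way, with medians of 16.7, 23.3, 28.3 and 30.2. Well represented enhancers thus had the stronger statistical support and the lower score. Across the 3174 regions Spearman's rho with input fold was -0.35 for the score and -0.09 for the fold. The score comes from the LIF and input libraries, so the input reads enter both sides of this relation. Each region also had to pass a LIF call over the input. The gradient is thus a description, and the part of either in it was not tested. The making of the score is not described in the labels or the files, and whether it is corrected for representation was not tested.

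**Figure D3:**
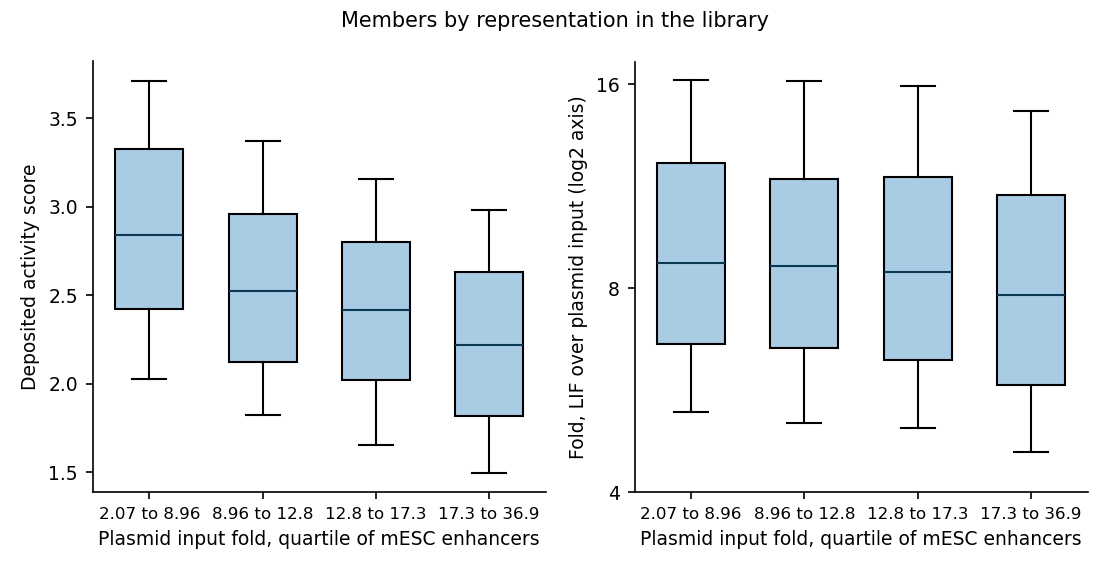
Deposited score (left) and fold of LIF over the plasmid input on a log2 axis (right) of the 3174 unchanged enhancers without an RARA peak that overlap an input region, by quartile of plasmid input fold. Boxes show the quartiles and the median, whiskers the 10th and 90th percentiles; the median score falls from 2.84 to 2.22, and the median fold from 8.72 to 7.82.

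The same quartiles were used to set unchanged enhancers without and with an RARA peak side by side at like representation. In the quartile of lowest input fold the median scores were 2.84 without (2.79 to 2.90) and 2.70 with (2.62 to 2.89). In the second they were 2.52 (2.46 to 2.60) and 2.45 (2.37 to 2.63), and in the third 2.42 (2.37 to 2.47) and 2.60 (2.44 to 2.69). In the highest they were 2.22 (2.17 to 2.28) and 2.30 (2.21 to 2.49). For fold, the medians without and with an RARA peak were 8.72 and 9.02 in the lowest quartile and 8.44 and 10.5 in the third. They were 7.82 and 8.90 in the highest, and 8.64 and 8.53 in the second. The intervals of the score overlapped in all 4 quartiles. Those of the fold overlapped in the lowest, second and highest quartiles but not in the third, where they were 8.16 to 8.70 without and 8.79 to 11.7 with an RARA peak.

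Regions at the extremes are drawn from the same values, so they illustrate the gradient and add no separate support. Of the 10 highest scores, 9 had an input region, and its input fold, from 3.67 to 9.34, lay below the median of 12.9 in all 9. The 5 regions of highest input fold, from 31.3 to 35.9, had scores from 0.879 to 2.68. Among them chr13:65516041-65516331 had the highest input fold, 35.9, a score of 1.95 and 8.61-fold enrichment over the plasmid. On chromosome 7, chr7:50522866-50523069 had an input fold of 31.5, a score of 0.879 and a fold of 4.56. Even here chr4:17019231-17019632 reached a score of 2.68 and 12.7-fold enrichment at an input fold of 31.3, above the median of the 3206 regions.

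No input region was overlapped by 32 of the 3206 regions (0.998%, 0.708 to 1.41%), so their sequence was active without being called as held by the library. Their scores were high, with a median of 3.35 and a range from 1.72 to 4.69, against 2.49 in the other 3174. Their peak fold was not, with a median of 8.32 against 8.40, and their −log10 q was low, 10.3 against 24.2. Besides chr1:25944966-25945207, the highest scores of this group belonged to chrX:111870557-111871130 (score 4.34, fold 5.02) and chr5:104621129-104621388 (score 4.27, fold 19.1). Of the 32, 4 lay on the X chromosome. Among the 673 unchanged enhancers with an RARA peak 0 lacked an input region. A count of 0 there allows a share of up to 0.446% (3 counts of 673, with a Wilson upper limit of 0.568%). An input region was overlapped by 580 of the 600 LIF-dependent enhancers and by all 195 RA-induced ones. Lacking one was thus not particular to the unchanged enhancers without an RARA peak.

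Most of these enhancers lay on a peak of the plasmid library. Reporter RNA can come only from DNA that the library holds, so this fit is set in part by the assay. The enhancer lay wholly inside the input region in 2473 of 3174 cases (77.9%, 76.4 to 79.3%). The median distance between the enhancer summit and the input summit was 20.0 bp (19.0 to 21.0), and it was at most 50 bp in 78.9% (77.4 to 80.3%). Unchanged enhancers with an RARA peak gave 78.8% (75.5 to 81.7%) for the first share and 77.1% (73.8 to 80.1%) for the last. The input region was wider than the enhancer in most cases, with a median of 488 bp (481 to 501), and wider still at unchanged enhancers with an RARA peak, 552 bp (528 to 576). In 278 cases (8.76%) the enhancer was the wider of the pair.

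The unchanged enhancers without an RARA peak had the lowest median width of the 4 classes. Their width had a median of 304 bp (301 to 307) and ran from 179 to 1280 bp. The medians were 327 bp (321 to 334) at unchanged enhancers with an RARA peak, 346 bp (333 to 359) at LIF-dependent and 386 bp (374 to 403) at RA-induced ones. Membership fell with width, from 77.5% (75.0 to 79.8%) of the narrowest quartile of mESC enhancers (179 to 263 bp) to 54.6% (51.7 to 57.5%) of the widest (376 to 1280 bp). Among unchanged enhancers the share with an RARA peak rose over the same quartiles, from 12.1% (10.2 to 14.2%) through 16.3% and 19.6% to 22.8% (20.0 to 25.8%). A wider region offers more bases for an overlap, and the part of width in the choice of the regions was not tested.

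The 5 widest regions had folds from 7.04 to 15.7. The first, chr1:124668700-124669979, was 1280 bp wide, with a fold of 8.38 and an input fold of 6.33. The second, chr7:6680475-6681707, 1233 bp wide, had a fold of 15.7 and 4 listed summits, more than any other of the 3206. An RARA peak of 2.84-fold lay 131 bp from its edge. On the X, chrX:41032680-41033712 was 1033 bp wide and the input region it overlapped 197 bp. Several summits were listed in 73 regions (2.28%, 1.81 to 2.85%), close to the 2.38% of unchanged enhancers with an RARA peak. These 73 had a median width of 527 bp, a median score of 2.06 and a median fold of 7.04, against 302 bp, 2.50 and 8.44 in regions with 1 summit.

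Absence of RARA at the enhancer did not mean absence from its surroundings. The median gap to the nearest RARA peak was 56.4 kb, with quartiles of 16.2 and 172 kb. An RARA peak lay within 1 kb of 202 regions (6.30%, 5.51 to 7.20%), within 10 kb of 590 (18.4%, 17.1 to 19.8%) and within 100 kb of 2058 (64.2%, 62.5 to 65.8%). As background, 2.48% of the input regions with no enhancer overlapped an RARA peak. Of the 177631 that overlapped none and lay on a chromosome with peaks, 1.83% (1.77 to 1.89%) had one within 1 kb and 11.9% (11.8 to 12.1%) within 10 kb. The units differ, since an RARA peak anywhere in an input region removed it, and only a peak at the enhancer removed an enhancer. For like units, a comparison added after seeing the data, the 3111 input regions that held one of these enhancers and overlapped no RARA peak had one within 1 kb in 4.66% (3.97 to 5.46%) and within 10 kb in 17.0% (15.8 to 18.4%). These intervals do not overlap those of the input regions with no enhancer at either distance. Restricted to the 7803 of the latter with an input fold of at least the enhancers' median, the shares were 1.85% (1.57 to 2.17%) and 9.61% (8.98 to 10.3%). The first was close to that over all of them, and the second was lower.

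**Figure D4:**
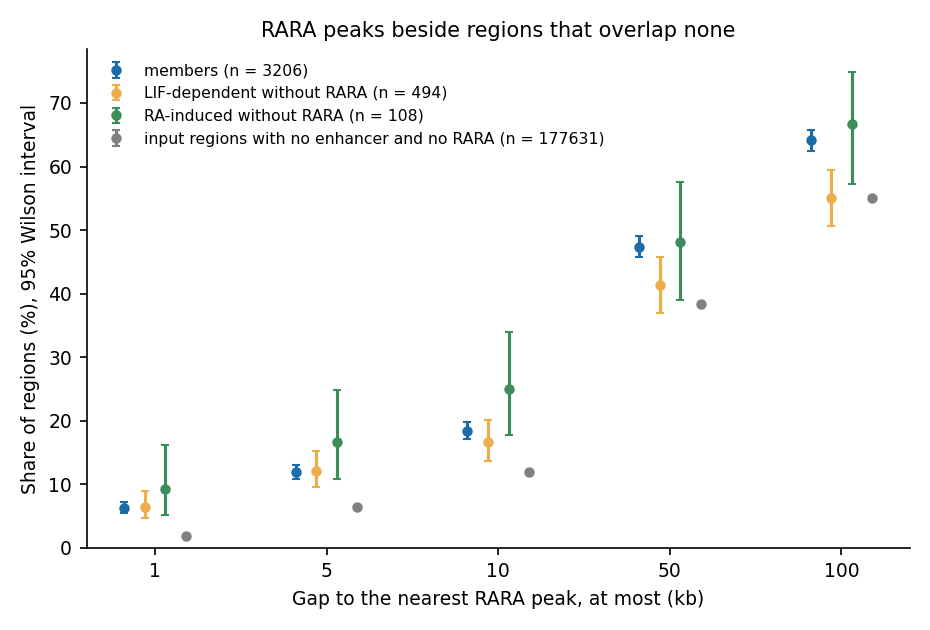
Share of regions (%) with an RARA peak within 1, 5, 10, 50 or 100 kb, among regions that overlap none, with 95% Wilson intervals. The unchanged enhancers (labelled members, n = 3206) lie above input regions with no enhancer at each distance (6.30% against 1.83% at 1 kb, and 4.66% when counted by input region). The intervals of RA-induced enhancers overlap theirs at each distance. Those of LIF-dependent enhancers overlap theirs up to 10 kb, meet theirs near 45.7% at 50 kb and lie below at 100 kb.

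LIF-dependent enhancers without an overlapping RARA peak had one within 1 kb in 6.48% (4.63 to 9.0%) and within 10 kb in 16.6% (13.6 to 20.1%). For RA-induced enhancers without an overlapping peak the shares were 9.26% (5.11 to 16.2%) and 25.0% (17.8 to 33.9%). The interval of each includes the value of the unchanged enhancers at 1 kb. At 100 kb the unchanged enhancers had 64.2% and the LIF-dependent ones 55.1% (50.7 to 59.4%), with intervals that do not overlap.

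The RARA peaks beside these enhancers were of ordinary strength. Those within 1 kb had a median fold of 2.89, against 3.06 over all 9757 RARA peaks and 3.32 at unchanged enhancers that a peak overlapped. In 63 cases the RARA peak lay in the same input region as the enhancer, at a median gap of 69.0 bp. These enhancers had a median score of 2.20. The 202 within 1 kb had 2.33 and the 3004 farther away 2.50. The median input fold was 12.9 both within and beyond 1 kb, and the median input region 540 bp and 486 bp wide. For the 63 enhancers these medians were 13.5 and 696 bp. No interval was made for these medians or scores, and the differences in score were not tested.

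The border drawn by the overlap rule is fine. Among the 3206 regions 51 lay within 100 bp of an RARA peak. The nearest, chr1:173200401-173200772, abutted a peak of 2.32-fold with 0 bp between them and had a score of 1.96. At chr16:31326918-31327151 (score 1.43) and chr9:61762305-61762565 (score 2.77) the gap was 2 bp. Just on the other side, chr11:19747948-19748247 was left out by an overlap of 3 bp (score 1.19) and chr11:95937020-95937531 by 4 bp (score 2.19). Of the 673 unchanged enhancers with an RARA peak, 19 overlapped it by 50 bp or less, and the median overlap was 227 bp.

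The lists of change hold 601 and 382 regions, far fewer than the 9757 RARA peaks, and few of these enhancers had a changed region nearby. A LIF-dependent or RA-induced region lay within 1 kb of 6 of the 3206 regions (0.187%), within 10 kb of 57 (1.78%) and within 100 kb of 445 (13.9%). At input regions with neither an enhancer nor an overlapping RARA peak the shares were 0.158%, 1.29% and 12.0%. The low shares at the enhancers were thus close to this background, with values slightly above it at each distance. No interval was made for these shares, and that at 1 kb rests on 6 regions. The units differ here too, since a changed region anywhere in an input region removed it. The nearest pair was chr7:26052405-26052703, with a fold of 6.64, which lay 189 bp from an RA-induced region. Another, chr17:24388879-24389079 with a fold of 7.37, lay 290 bp from a LIF-dependent region. In these pairs a region in a list of change lay less than 1 kb from a region in neither list. No fold between LIF and RA was given for the latter.

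In relation to other mESC enhancers, the regions had a median gap of 97.9 kb to the nearest other one. Another mESC enhancer lay within 10 kb of 280 of them (8.73%, 7.81 to 9.76%). For unchanged enhancers with an RARA peak this share was 12.5% (10.2 to 15.2%), for LIF-dependent ones 8.00% (6.09 to 10.4%) and for RA-induced ones 8.72% (5.51 to 13.5%). The nearest neighbour was itself an unchanged enhancer without an RARA peak in 197 of the 280 (70.4%, 64.8 to 75.4%), close to their share of 68.6% of the whole list. It was an unchanged enhancer with an RARA peak in 15.7%, LIF-dependent in 10.0% and RA-induced in 3.93%, near the 14.4%, 12.8% and 4.17% that these classes make up. An input region was shared with another mESC enhancer by 13 regions.

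The X chromosome carried more of these enhancers per input region than any autosome. It held 96 of them among 2576 input regions, or 37.3 per 1000 (30.6 to 45.3). The autosomes together had 16.9 per 1000 (16.3 to 17.5), and single autosomes ran from 13.9 on chromosome 14 to 22.2 on chromosome 7. All mESC enhancers were also more frequent per input region on the X. They numbered 126 beside its 2576 input regions, and 4548 beside 184372 on autosomes. A higher rate on the X was thus not particular to the enhancers described here. The X had the fewest input regions, against 5231 on chromosome 19, and these had a higher input fold, with a median of 6.33 against 5.46 on autosomes. Among input regions in the highest decile of input fold, 13.1% on the X (57 of 434; 10.3 to 16.6%) and 10.9% on autosomes (10.5 to 11.4%) held one. Single autosomes ran from 7.77% on chromosome 14 to 14% on chromosome 7 in that decile, so there the X lay within their range. Chromosomes 7 and 11, at 14% and 13.6%, were above it.

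**Figure D5:**
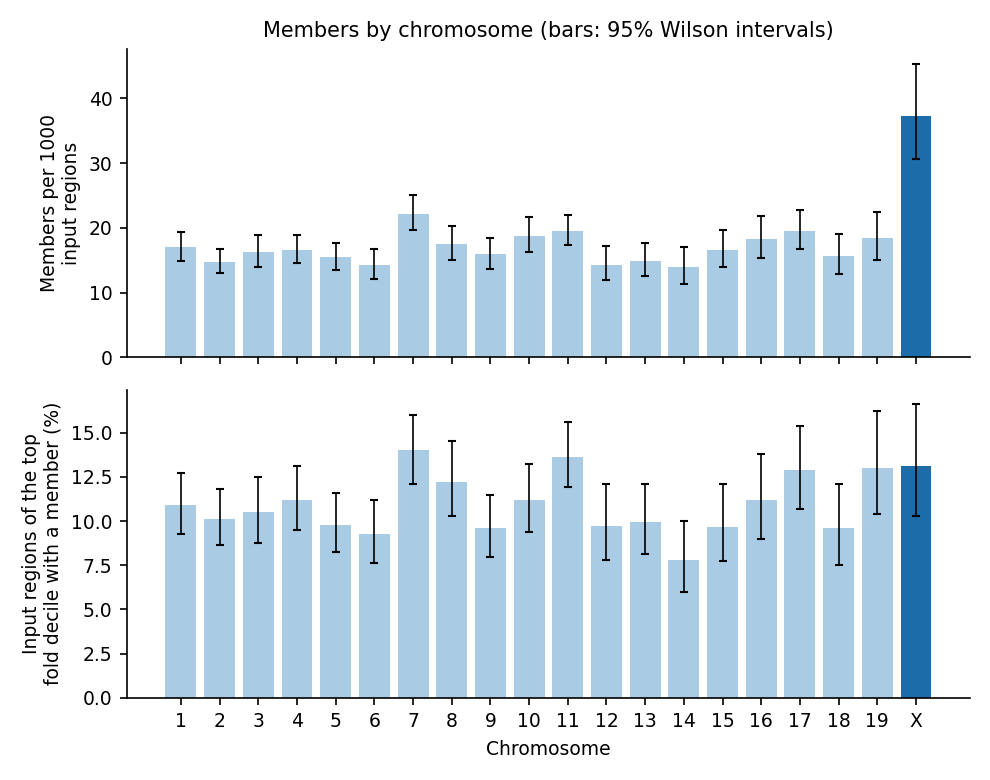
Unchanged enhancers without an RARA peak (members) per 1000 plasmid input regions (top) and share of input regions in the highest decile of input fold that hold one (bottom, %), by chromosome, with 95% Wilson intervals. The X (dark bar) stands at 37.3 per 1000 above all autosomes in the top panel, and at 13.1% within their range in the bottom panel. All mESC enhancers, not plotted, were also more frequent per input region on the X.

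RARA peaks were less frequent in X-linked DNA of the library as a whole, overlapping 1.75% of input regions on the X (1.31 to 2.33%) and 2.95% on autosomes (2.88 to 3.03%). In the highest decile of input fold the shares were 4.61% (3.00 to 7.01%) and 9.56% (9.14 to 9.99%). Of 102 unchanged enhancers on the X 6 overlapped one (5.88%, 2.72 to 12.2%), against 667 of 3777 on autosomes (17.7%, 16.5 to 18.9%). The X regions lay far from RARA peaks, with a median gap of 590 kb against 53.7 kb on autosomes. Their share of all mESC enhancers was 76.2% (68.0 to 82.8%) on the X and 68.4% (67.0 to 69.7%) on autosomes, with overlapping intervals. The median fold was 8.40 on both. The median score was 2.73 (2.45 to 2.93) on the X and 2.49 (2.47 to 2.52) on autosomes, and the median input fold 12.5 and 12.9. Over single autosomes the share of mESC enhancers ran from 63.3% on chromosome 18 to 73.3% on chromosome 16.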

How the data were processed

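Reporter RNA was measured by FAIRE-STARR-seq in E14 cells in 3 samples with LIF, 3 with RA and 1 of the plasmid input, and RARA binding by ChIP-seq (1 sample, 1 input). Groups follow the sample titles. Per the labels' protocols, 4 transfections were pooled for each replicate, and an identifier of 8 random bases marked each cDNA molecule. The genome build was mm9, per the submitters' processing notes, which name MACS2, Bowtie2, SAMtools, deepTools and UMI-tools with no settings or versions. The deposited lists have no header; the peak names of the enhancer lists speak of merged replicates. The authors' columns used were the fold enrichment (a ratio), the −log10 q and the summit. The column of peak scores, 10 times the −log10 q in the deposited lists, was not used. The deposited activity score has no stated scale. Depth is unknown.

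Rows sharing a region were collapsed to that of highest −log10 q (113 of 4787 mESC rows, 1609 of 11366 RARA rows). Regions overlapped when they shared at least 1 bp. An enhancer took the highest fold among the input regions it overlapped, and width and summit distance from the one of longest overlap. No test was made, because the lists hold no value per replicate and the rule used the contrasts. The overlap and interval code was tested on simulated regions. Regions named are the extremes by score, fold, input fold, width and gap to RARA or changed regions, by a written rule; those without an input region were added after their values were seen. Members, lists and rule were chosen with earlier results of these data known. Alternatives changed the overlap, RARA peaks, collapsing, distances and input regions. Planned motif and gene start counts were not run, since no mm9 reference was at hand. Values were computed in Python 3.11.15 with SciPy 1.17.1, pandas 2.3.3 and NumPy 2.4.6, and plotted with Matplotlib 3.10.9.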

Additional observations from a re-analysis of the deposited data

How the results depend on the processing

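Of 37 values recomputed under other settings, 25 stayed within 1.5 times the count or within the 95% interval of the value reported, and 12 moved. The number of regions, 3206, ran from 2999 when any gap up to 1 kb left a region out to 3471 with the stronger 50% of RARA peaks. The share with an RARA peak within 10 kb, 18.4%, became 9.54% with the stronger 50% of RARA peaks, 11.0% with RARA peaks of −log10 q of at least 5 and 12.9% when any gap up to 1 kb left a region out; the first 2 settings count fewer peaks and the third removes the nearest regions. It was 17.0% when gaps were taken from input regions overlapping no RARA peak, a setting chosen after seeing the data. It was 6.30% within 1 kb and 47.4% within 50 kb. The share with another mESC enhancer within 10 kb, 8.73%, was 4.55% within 5 kb, 33.9% within 50 kb and 6.30% when another of the 3206 regions was required. Regions of −log10 q at or above the list's median had a median fold of 11.6, a median score of 2.78 and a median input fold of 14.1. On the X, 131 per 1000 input regions of the highest fold decile held an enhancer. No paired analysis was possible because single replicates have no value in the deposited lists, and leaving out replicates could not be done for the same reason. Motif and gene start shares were not run. Without read counts, the precision of each peak value is unknown.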

Other observations

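Score and fold ranked some enhancers differently. These counts were made after the values were seen. Among the 3206 unchanged enhancers without an RARA peak, 321 had a score in the highest decile, and 25 of these had a fold below the median of the 3206. The 25 had a median fold of 6.59, a median score of 3.59 and a median input fold of 5.00, and 4 of them overlapped no input region. Their −log10 q had a median of 7.24, against 48.1 in the other 296. The reverse was rarer, with 1 of the 321 regions in the highest decile of fold having a score below the median. The 177 regions in the highest decile of both had a median input fold of 10.4 and a median −log10 q of 70.6.

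A few stretches of the genome held several of these enhancers. The densest window of 50 kb held 5 regions. It lay on the X from 47943983 to 47973448, over 29.5 kb, and no other class of mESC enhancer was found in it. Its 5 regions had scores of 3.57, 2.39, 2.90, 2.11 and 2.66 from left to right, and their input folds ran from 5.67 to 21.5. The nearest RARA peak was 1320 kb away. On chromosome 19, 4 regions lay from 8945789 to 8994979 with scores from 2.23 to 3.17, one of them 0.619 kb from an RARA peak. On chromosome 8, 4 regions lay from 108375819 to 108424421 with scores from 1.76 to 3.17, beside 1 mESC enhancer of another class.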
